A study of Homo sapiens with 4 samples.

Results

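The 10 genes described here, MYD88, IRAK1, IRAK2, IRAK4, TRAF6, RIPK2, NOD1, TAB1, MAP3K7 and IKBKB, encode adaptors and kinases that carry signals from innate immune receptors to the transcription factor NF-κB. They were chosen by name as the route in which INAVA is known to act in innate immune cells, and all 10 have a value among the 13165 genes of the deposited table. The cells were TPC1, an established line from a human papillary thyroid carcinoma, and RNA was sequenced in 2 libraries for each of 2 groups. TPC1-Vector cells carried an empty vector, retroviral in the study's methods and called a transfection in the labels, and TPC1-INAVA cells carried the same vector with the full-length INAVA cDNA, listed under its older symbol C1orf106. Both groups were grown in DMEM with FBS and selected with puromycin as stable lines, with no stimulus of the receptors named in the labels. The authors combined the libraries of a group into 1 FPKM value per gene (fragments mapped to a gene, divided by its transcript length and by the size of the library), so no SD, replicate check or test was computed from these values here, and the depth behind each value is unknown.

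Innate receptors reach NF-κB by converging routes. Toll-like receptors and the interleukin-1 receptor recruit MYD88, which assembles IRAK4, IRAK1 and IRAK2 into a signalling complex and engages the ubiquitin ligase TRAF6. NOD1, a cytosolic sensor of bacterial peptidoglycan, recruits the kinase RIPK2 instead. Both routes activate the kinase TAK1, encoded by MAP3K7, with its subunit TAB1, and TAK1 activates the IκB kinase IKKβ, encoded by IKBKB, which marks IκB proteins for degradation and frees NF-κB. This route is mostly set in motion by modification of proteins already present, so transcript levels describe the supply of its parts and not its activity. INAVA is a risk gene for Crohn's disease and amplifies signalling from these receptors in innate cells.

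INAVA itself was at 7.96 FPKM with the empty vector and 123 FPKM with INAVA, a ratio of 15.4. The labelled cell type was checked against marker genes. Of 5 thyroid lineage genes, PAX8 (60.1 and 55.7 FPKM, vector and INAVA) and FOXE1 (5.26 and 5.89 FPKM) had a value, and TG, TSHR and NKX2-1 had none. Of 6 epithelial genes, KRT8, KRT18 and KRT7 had a value, and KRT19, EPCAM and CDH1 had none. KRT18 was at 140 and 212 FPKM, KRT8 at 23.4 and 10.5 FPKM and KRT7 at 1.97 and 2.01 FPKM. Their summed level was 166 FPKM with the empty vector and 224 FPKM with INAVA, most of it KRT18. Of 8 leukocyte and macrophage genes, CD14, CD68 and LYZ had a value, and PTPRC, ITGAM, SPI1, CSF1R and CD163 had none. The summed level of CD14, CD68 and LYZ was 6.95 and 9.85 FPKM, most of it CD68 (5.76 and 8.67 FPKM). CD14 was at 0.295 and 0.236 FPKM and LYZ at 0.891 and 0.940 FPKM. Of 4 fibroblast genes, COL1A1 and PDGFRB had a value, with a summed level of 3.18 and 1.96 FPKM, and COL1A2 and DCN had none. The part of any other cell type in the results was not tested, and in bulk RNA fewer cells expressing a gene and less RNA per cell cannot be told apart.

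The 10 genes differed little between the groups. Differences are given as log2(FPKM + 0.5) in TPC1-INAVA minus TPC1-Vector, a scale that understates the change of weakly expressed genes, over the 12305 genes kept, those whose mean of the groups reached 0.5 FPKM, a filter that all 10 passed. IRAK2 was the only one of the 10 at least 1.2-fold higher, and 0 of the 10 were at least 1.2-fold lower. Among all genes kept, 10.6% were at least 1.2-fold higher and 9.63% at least 1.2-fold lower, 20.2% in either direction, so the share of the 10 past this fold was near or under the background. At a fold of 1.5, 0 of the 10 were apart in either direction, against 3.7% of all genes kept. By any amount 6 were higher and 4 were lower, against 50.8% and 49.2% of all genes. The median log2 difference of the 10 genes was 0.045, beside 0.0033 for all genes kept, and the single values ran from -0.17 for NOD1 to 0.30 for IRAK2. The plot of level against difference places all 10 within the cloud of the other genes, with INAVA far above it.

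**Figure D1:**
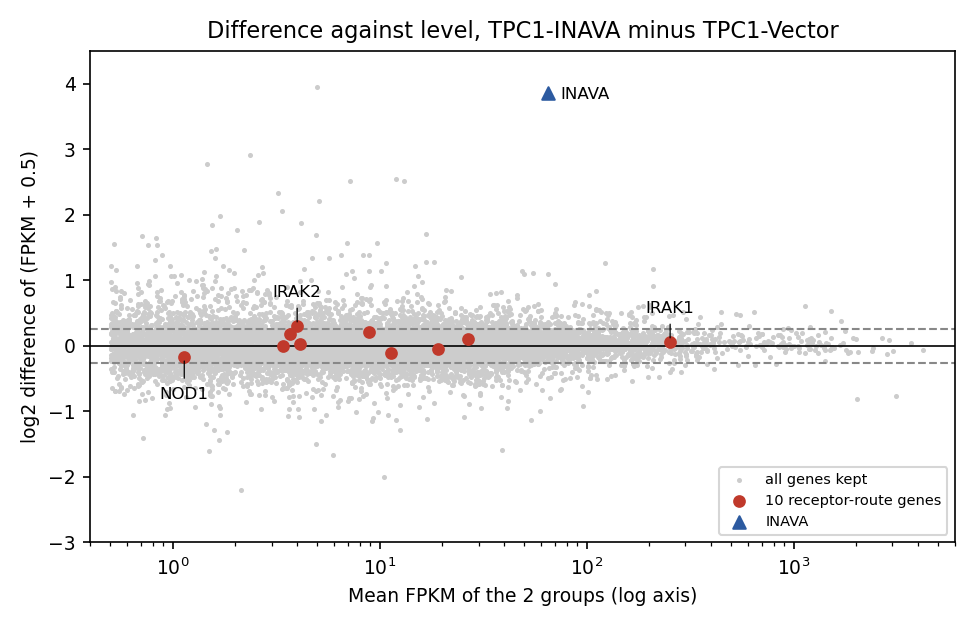
Each point is a gene, with its mean FPKM over the groups on a log axis and its log2 difference of (FPKM + 0.5), TPC1-INAVA minus TPC1-Vector; dashed lines mark a 1.2-fold difference, and 4 of the 12305 genes fall outside the axes. The 10 receptor-route genes (red) lie between -0.17 and 0.30, and INAVA (blue triangle) lies at 3.86.

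At the receptor end, NOD1 (chromosome 7, 30424527 to 30478777, GRCh38, reverse strand) was the weakest of the 10. It was at 1.23 FPKM with the empty vector and 1.04 FPKM with INAVA. This log2 difference of -0.17 lay at percentile 17.6 of all genes kept and was the lowest of the 10. An annotated antisense gene, AC006027.1, overlaps NOD1, and the strand of the counting is not given in the sources used here, so reads of both genes may not be separated. RIPK2 (chromosome 8, 89757747 to 89791064, forward strand), the kinase that binds NOD1, was at 25.7 FPKM with the empty vector and 27.5 FPKM with INAVA, a log2 difference of 0.096. Its level was 20.9 times that of NOD1 in the vector group and 26.5 times in the INAVA group, so the kinase was far more abundant as a transcript than its receptor in both.

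The shared adaptor MYD88 (chromosome 3, 38138478 to 38143021, forward strand) was at 4.08 FPKM with the empty vector and 4.18 FPKM with INAVA, a log2 difference of 0.032. Its level lay at percentile 26.6 of the genes kept. TRAF6 (chromosome 11, 36483767 to 36510313, reverse strand), the ubiquitin ligase below it, was at 3.43 and 3.42 FPKM in these groups. Its log2 difference of -0.0030 was the nearest to 0 of the 10, and quantile normalization of the columns turned its sign (0.010). MYD88 and TRAF6 were thus at nearly the same level in both groups.

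The IRAK kinases stood far apart in level. IRAK1 (chromosome X, 154010506 to 154019891, reverse strand), which links the MYD88 complex to TRAF6, was at 248 FPKM with the empty vector and 258 FPKM with INAVA, at percentile 98.0 of the levels of all genes kept. Its log2 difference was 0.057. IRAK4 (chromosome 12, 43758944 to 43789543, forward strand), the kinase that MYD88 recruits and that acts on IRAK1, was at 3.42 FPKM with the empty vector and 3.92 FPKM with INAVA, a log2 difference of 0.17. IRAK2 (chromosome 3, 10164879 to 10243743, forward strand), which sustains signalling to TRAF6, was at 3.52 FPKM with the empty vector and 4.46 FPKM with INAVA. The ratio of IRAK2 between the groups was 1.27 and its log2 difference of 0.30 lay at percentile 91.5 of all genes kept. This was the largest difference among the 10, and 1 value per group does not show whether it exceeds the spread between libraries. FPKM is per length, so levels can be set side by side within a group. Of the summed level of the 3 IRAK kinases with a value, IRAK1 made up 97.3% in TPC1-Vector and 96.9% in TPC1-INAVA. IRAK2 made up 1.38% and 1.67%, and IRAK4 1.34% and 1.47%. IRAK1 was thus the dominant IRAK transcript in both groups, at 72.5 times the level of IRAK4 in the vector group and 65.8 times in the INAVA group. IRAK3, which restrains the complex, had no value here.

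**Figure D2:**
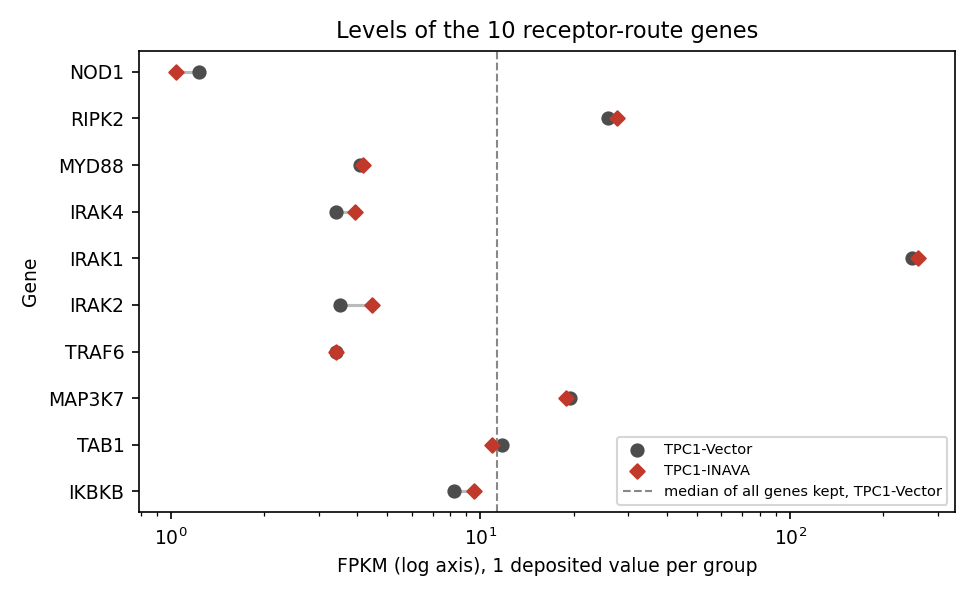
Level of each of the 10 genes in FPKM on a log axis, in TPC1-Vector (grey circles) and TPC1-INAVA (red diamonds), 1 deposited value per group and no error bars; the dashed line is the median of all genes kept in TPC1-Vector, 11.3 FPKM. IRAK1 stands alone at 248 and 258 FPKM, and the paired symbols of most genes nearly coincide.

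At the TAK1 step, MAP3K7 (chromosome 6, 90513573 to 90587301, reverse strand) was at 19.4 FPKM with the empty vector and 18.9 FPKM with INAVA, a log2 difference of -0.042. TAB1 (chromosome 22, 39399754 to 39437128, forward strand), the subunit that activates TAK1, was at 11.8 and 10.9 FPKM, a log2 difference of -0.10. The other subunits, TAB2 and TAB3, bind the ubiquitin chains made by TRAF6. TAB2 was at 41.4 and 39.1 FPKM and TAB3 at 4.29 and 4.05 FPKM. All 4 genes of the complex were lower in TPC1-INAVA, none by 1.2-fold, and their shares of the summed level of the complex hardly moved. MAP3K7 made up 25.3% of it in TPC1-Vector and 25.9% in TPC1-INAVA, and TAB1 made up 15.3% and 15.0%.

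The IκB kinase complex differed more in its makeup. IKBKB (chromosome 8, 42271302 to 42332653, forward strand), the catalytic subunit of the canonical route, was at 8.20 FPKM with the empty vector and 9.56 FPKM with INAVA, a log2 difference of 0.21 at percentile 85.3. CHUK, which encodes the other catalytic subunit IKKα, was at 23.3 FPKM with the empty vector and 16.7 FPKM with INAVA, a log2 difference of -0.47. IKBKG, which encodes the regulatory subunit NEMO, was at 31.6 and 30.04 FPKM and shares its listed position with 1 other gene. IKBKB made up 13.0% of the summed level of the 3 subunits in TPC1-Vector and 17.0% in TPC1-INAVA, and CHUK made up 36.9% and 29.7%. The ratio of IKBKB to CHUK was 0.353 in the vector group and 0.572 in the INAVA group. CHUK lies on chromosome 10, where 0 of 36 genes within 2 Mb on each side were higher in TPC1-INAVA and their median log2 difference was -0.33. Their part in the lower level of CHUK was not tested.

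**Figure D3:**
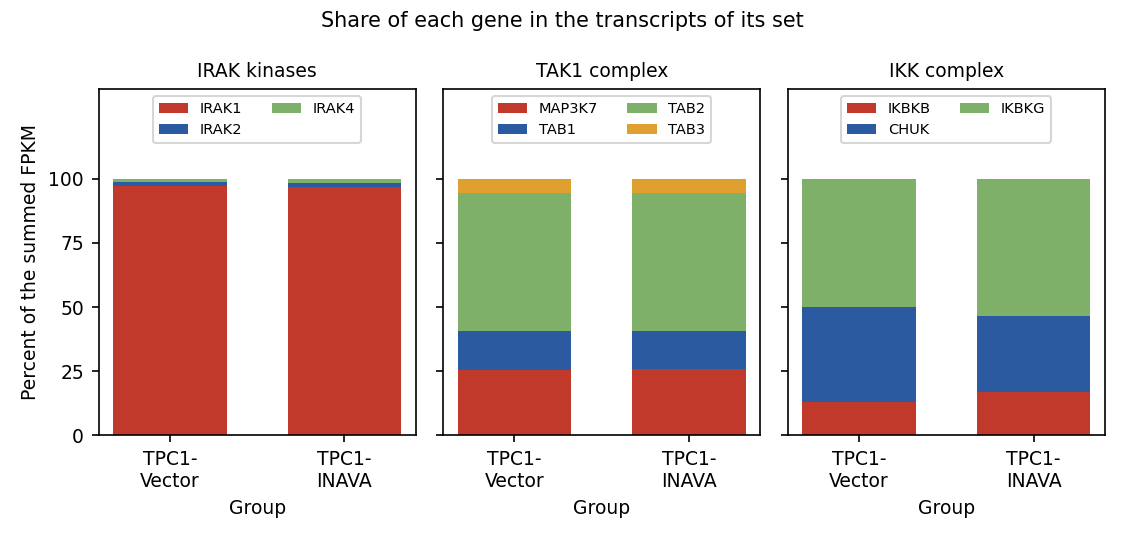
Stacked bars give the percent of the summed FPKM that each gene contributes within the IRAK kinases, the TAK1 complex and the IKK complex, in TPC1-Vector and TPC1-INAVA, from 1 value per group. IRAK1 fills over 96% of the first set in both groups, the TAK1 bars match closely, and in the IKK bars IKBKB is 13.0% and 17.0%.

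The order of the levels was almost the same in both groups. In TPC1-Vector it ran from IRAK1 through RIPK2, MAP3K7, TAB1, IKBKB, MYD88, IRAK2, TRAF6 and IRAK4 to NOD1. In TPC1-INAVA the first 5 and the last kept their places, and IRAK2 stood above MYD88 and IRAK4 above TRAF6. These 4 genes lay between 3.42 and 4.08 FPKM in TPC1-Vector and between 3.42 and 4.46 FPKM in TPC1-INAVA, too close to be ordered without a spread. In all, 6 of the 10 were under the median level of the genes kept in both groups. In TPC1-Vector, INAVA was 1.95 times the level of MYD88 and IRAK1 was 31.1 times the level of INAVA. In TPC1-INAVA, INAVA was 29.3 times the level of MYD88, and IRAK1 was the only one of the 10 above it, at 2.11 times its level. The INAVA value of TPC1-INAVA does not separate reads of the introduced cDNA from those of the cells' own gene. The introduced transcript may differ in length from the annotated one, so these ratios in TPC1-INAVA are approximate.

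Genes near each of the 10 on its chromosome gave a view of regional shifts, which are present elsewhere in these data. The median log2 difference of the genes within 2 Mb on each side, counting those that averaged at least 1 FPKM, lay between -0.072 for IRAK4 and 0.095 for TRAF6. The 27 neighbours of IRAK2 had a median of 0.0061, and 14 of them were higher in TPC1-INAVA. The 17 neighbours of IKBKB had a median of -0.0072, with 7 higher. The 2 largest differences among the 10 stood in regions whose median was near 0. The part of a region in the difference of any of the 10 genes was not tested. For IRAK1 the median of 44 neighbours, 0.059, was as large as the difference of the gene itself. The plot of genes and neighbours shows both values for each gene.

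**Figure D4:**
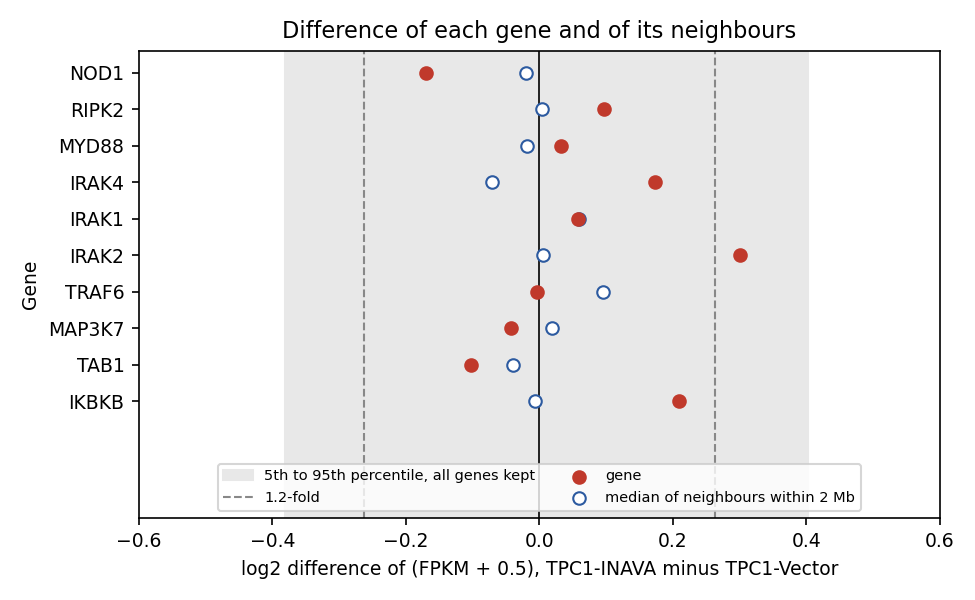
Log2 difference of (FPKM + 0.5), TPC1-INAVA minus TPC1-Vector, of each of the 10 genes (red) and the median of its neighbours within 2 Mb (open blue; hidden behind the red point for IRAK1); dashed lines mark 1.2-fold and the grey band the 5th to 95th percentile of all genes kept, -0.38 to 0.40. All 10 genes lie inside the band, and IRAK2 alone lies past a dashed line.

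The other genes of the route were described in 8 lists holding 81 genes, of which 64 had a value and 62 passed the filter. Of these, 8 were at least 1.2-fold higher and 6 at least 1.2-fold lower in TPC1-INAVA, 12.9% and 9.68%, again near the 10.6% and 9.63% of all genes kept. Their median log2 difference was 0.020. The lists were described by counts and medians only, with no test. The shares of all genes kept, 10.6% higher and 9.63% lower, are also the background for the count of each list below.

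Among the receptors and co-receptors, 8 of 18 genes were kept. Of these, 0 were at least 1.2-fold higher and 3 at least 1.2-fold lower, beside 10.6% and 9.63% of all genes kept. By any amount, 3 of the 8 were higher. TLR3, the sensor of double-stranded RNA, was at 4.28 FPKM with the empty vector and 2.88 FPKM with INAVA. TLR6, a partner of TLR2, was at 6.69 and 5.10 FPKM. TLR1, another partner of TLR2, was at 0.972 and 0.672 FPKM. All 3 are receptors of the Toll-like family, named because they were past the limit. TLR1 was under 1 FPKM in both groups with unknown depth, so its error is unstated. LY96, a co-receptor of the list, was at 2.20 and 2.72 FPKM, a log2 difference of 0.25 just under the 1.2-fold limit. TLR1 and TLR6 lie close together on chromosome 4, at 38796255 to 38804791 and 38823708 to 38856817. With a pseudocount of 1, or a filter at 1 FPKM, the number at least 1.2-fold lower was 2. TLR4, the receptor for bacterial lipopolysaccharide, had the highest mean level of the list, with 6.68 and 6.88 FPKM. IL1R1, the interleukin-1 receptor that signals through MYD88, was at 5.38 and 5.01 FPKM. TLR2 and NOD2 had no value here.

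The other adaptors with a TIR domain, the interaction domain they share with MYD88, went both ways. TICAM1, which encodes the TLR3 adaptor TRIF, was at 2.24 FPKM with the empty vector and 3.26 FPKM with INAVA. TIRAP, which brings MYD88 to TLR4, was at 6.12 and 4.88 FPKM. TICAM2 was at 2.11 and 2.12 FPKM and shares its listed position with 3 other genes. TICAM1 was thus higher while its receptor TLR3 was lower.

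Of 13 ubiquitin enzymes kept, 2 were at least 1.2-fold higher and 0 at least 1.2-fold lower. UBE2V1, a subunit of the enzyme that builds ubiquitin chains with TRAF6, was at 90.3 FPKM with the empty vector and 125 FPKM with INAVA. It shares its listed position with 2 other genes and lies on chromosome 20, where 21 of 24 neighbours were higher with a median log2 difference of 0.28. The part of this region in its level was not tested. Its partner UBE2N was at 76.7 and 84.9 FPKM. BIRC2, which encodes the ubiquitin ligase cIAP1, was at 24.8 and 34.1 FPKM, with a median of 0.019 for its 7 neighbours.

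Among the other TAK1 and IKK subunits and related kinases, CHUK was the 1 of 10 genes at least 1.2-fold apart, and the median of the list was -0.037. TAB2 had the highest mean level of this list. Of 3 NOD1 and NOD2 partners kept, 0 were at least 1.2-fold apart. ERBIN, listed under its older symbol ERBB2IP, had the highest mean level of these, at 26.8 and 25.7 FPKM. Of 8 genes of the p38 and JNK arm, which also starts at TAK1, 1 was at least 1.2-fold lower. This was MAP2K6, a kinase that activates p38, at 4.47 FPKM with the empty vector and 2.67 FPKM with INAVA. MAP2K3, which also activates p38 and had the highest mean level of the arm, was at 33.5 and 38.2 FPKM.

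Of the genes that restrain the route, 7 of 10 were kept. Of these, 1 was at least 1.2-fold higher and 0 at least 1.2-fold lower, beside 10.6% and 9.63% of all genes kept. By any amount 6 of the 7 were higher, beside 50.8% of all genes kept. The median log2 difference of the list was 0.18, the highest of the 8 lists. SIGIRR, a receptor-like protein that dampens interleukin-1 and Toll-like receptor signalling, was at 1.06 FPKM with the empty vector and 2.88 FPKM with INAVA, a ratio of 2.71 and a log2 difference of 1.11 at percentile 99.5 of all genes kept. It had the largest difference of the 62 route genes kept, at a low level and with unknown depth. Its 27 neighbours had a median of 0.15, with 20 higher. TNIP1, a partner of the NF-κB inhibitor TNFAIP3, had the highest mean level of the list, at 32.7 and 38.4 FPKM.

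Downstream of the 10 genes, 4 of 10 NF-κB subunits and IκB proteins were at least 1.2-fold higher and 0 at least 1.2-fold lower. Among all genes kept these shares were 10.6% and 9.63%. The median log2 difference of the list was 0.15. NFKBIE, which encodes IκBε, was at 6.29 and 10.2 FPKM, NFKBIZ at 7.65 and 9.55 FPKM, RELB at 9.99 and 12.3 FPKM and NFKBIA, which encodes IκBα, at 16.0 and 19.6 FPKM. NFKBIZ, RELB and NFKBIA lay just past the 1.2-fold limit of 0.26, at log2 differences of 0.30, 0.29 and 0.29. The median of the neighbours was 0.075 for RELB, 0.078 for NFKBIA, 0.012 for NFKBIE and -0.015 for NFKBIZ. The part of these regions in the levels was not tested. NFKBIZ shares its listed position with 1 other gene. RELA, which encodes the main activating subunit and had the highest mean level of the list, was at 24.7 and 28.3 FPKM.

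**Figure D5:**
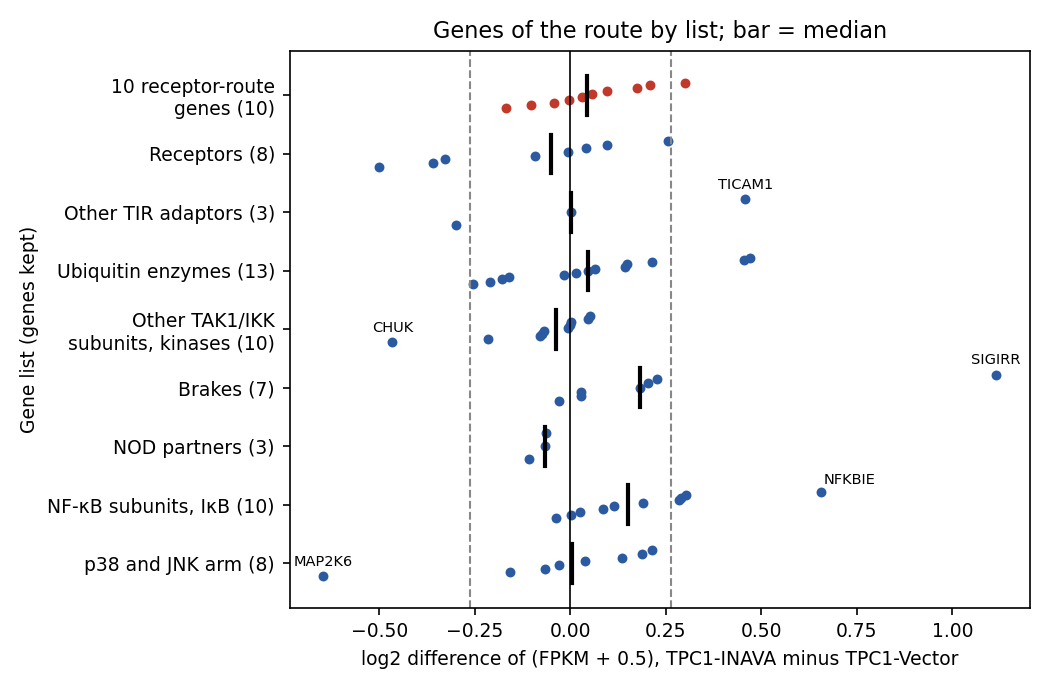
Log2 difference of (FPKM + 0.5), TPC1-INAVA minus TPC1-Vector, of each gene kept in the 10 receptor-route genes (red) and the 8 lists (blue), with the number of genes in brackets, the median as a bar and dashed lines at 1.2-fold. The 10 genes spread from -0.17 to 0.30, while SIGIRR reaches 1.11 and NFKBIE 0.66.

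The promoters were compared for the κB consensus, the DNA motif that NF-κB binds, searched on both strands, whose matches can overlap, in windows of 250 bases before to 50 bases after each RefSeq start site (GRCh38.p14). A window was found for 8 of the 10 genes (RIPK2 and IKBKB had none), and 0 of these 8 windows held the consensus, beside 5.91% of the 35116 windows of all genes. No match says only that the letters are not in this window. Of the NF-κB subunits and IκB proteins with a window, 7 of 8 genes held it in at least 1 of their 14 windows, beside 7.09% of all genes with a window. NFKBIE and RELB had no window. In the other lists, the consensus was held by 0 of 14 receptors and co-receptors, 1 of 3 TIR adaptors, 3 of 13 ubiquitin enzymes, 2 of 10 TAK1 and IKK subunits and related kinases, 1 of 5 NOD1 and NOD2 partners, 3 of 10 genes that restrain the route and 3 of 8 genes of the p38 and JNK arm. Of the list genes kept that had a window, with ERBIN left out because of its older symbol, it was held by 3 of 6 that were at least 1.2-fold higher in TPC1-INAVA. It was held by 16 of 45 that were under 1.2-fold apart and 0 of 4 that were at least 1.2-fold lower. The share of all genes with a window was 7.09%, and the higher and lower groups are too small to be set apart. Most of these list genes were under 1.2-fold apart, with or without a match. These counts were compared with no test. Of the route genes at least 1.2-fold higher in TPC1-INAVA, TICAM1, NFKBIA and NFKBIZ held a match, and these are printed as examples of the letters that were found. NFKBIA and NFKBIZ belong to the list in which 7 of 8 genes held the consensus. NFKB1, at 21.0 FPKM with the empty vector and 20.5 FPKM with INAVA, and NFKB2, at 16.20 and 16.24 FPKM, also held a match. Of the 46 neighbours of NFKB2 on chromosome 10, 1 was higher in TPC1-INAVA, with a median log2 difference of -0.30. The part of this region in the level of NFKB2 was not tested. The match stands in capitals with 10 bases on each side, on the strand of the gene. TICAM1 lies at chr19:4831813-4831842 on the reverse strand, NFKBIA at chr14:35404811-35404840 on the reverse strand, and NFKBIZ at chr3:101827757-101827786 and chr3:101849265-101849294 on the forward strand, upstream of 2 start sites.
TICAM1: gggcgacccgGGGACTTTCCcggtgctgcg
NFKBIA: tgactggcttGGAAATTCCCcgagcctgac
NFKBIZ, first site: tttttggtctGGGAATTTCCagtgtgcaga
NFKBIZ, second site: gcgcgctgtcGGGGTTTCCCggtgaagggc
A match is a description of the sequence and not a measured binding site. UBE2V1, BIRC2 and SIGIRR, also at least 1.2-fold higher in TPC1-INAVA, held no match in their windows, nor did IRAK2.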

How the data were processed

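RNA of 2 TPC1-Vector and 2 TPC1-INAVA libraries was measured by RNA-seq. Per the submitters' processing notes, CASAVA, Cufflinks 2.1.1 and Cuffdiff were used on hg38. The aligner and the annotation are not given in the sources used here. The methods and the labels name different library kits. The authors deposited 1 FPKM value per gene and group, so that depth, counting error and the spread between libraries are unknown. The log2 ratio, p-value and q-value of the authors' own comparison were not used.

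Genes averaging under 0.5 FPKM in the pair of groups were left out. Differences were computed on the log2(FPKM + 0.5) scale and counted at 1.2-fold. No test was run on the FPKM values, because there is 1 value per group. The 10 genes and the lists were chosen with earlier results of these data known. The genes named were the 10 genes, INAVA, the other subunits of the TAK1 and IKK complexes and, from each list, up to 4 genes with the largest differences among those at least 1.2-fold apart and the gene with the highest mean FPKM. IL1R1, LY96, UBE2N, TICAM2, NFKB1 and NFKB2 were named in addition, as were list genes without a value, after their values were seen. Some results, among them those of 1 marker gene, are not reported here. ERBIN was matched by an older symbol, ERBB2IP.

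Positions were compared with GENCODE release 29 (GRCh38), and 11949 of 11952 genes overlapped their namesake. Their starts, counted from 0, were raised by 1. A listed position common to several genes was found for 2612 genes. The calculation of differences was tested on simulated data. Python 3.11.15, numpy 2.4.6, pandas 2.3.3 and matplotlib 3.10.9 were used. The alternatives were pseudocounts of 0.1 and 1, no filter, a filter at 1 FPKM, median-of-ratios scaling, quantile normalization, a fold of 1.5 and windows of 1 and 5 Mb, and, chosen after seeing the data, a ratio without pseudocount.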

Additional observations from a re-analysis of the deposited data

How the results depend on the processing

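No paired analysis was possible because libraries of a group were combined into 1 value, and leaving out each library in turn was not run for the same reason. The log2 difference of each of the 10 genes moved by less than 0.1 under every alternative that recomputed it, and IRAK2 ranged from 0.27 to 0.34. At a fold of 1.5 the number of the 10 genes that were higher was 0, since the limit itself is stricter. With a pseudocount of 0.1, the receptors at least 1.2-fold higher were 1 and the genes that restrain the route 2, since a smaller pseudocount widens the difference of weak genes. The same numbers, 1 and 2, were found for the ratio without pseudocount, where 1 ubiquitin enzyme was also at least 1.2-fold lower. With no filter, 2 genes that restrain the route were at least 1.2-fold higher, as IL1R2, at a mean of 0.425 FPKM, was then counted. The fold of 1.5 was applied to the counts of the 10 genes and of all genes kept, and the counts of the lists were not recomputed at it. Under the remaining alternatives, other counts stayed within 1.5 times those reported and other medians within 0.1. The unknown depth leaves the error of weak genes such as NOD1 and SIGIRR unstated.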

Other observations

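Other receptors reach the IκB kinases without MYD88 or NOD1. The values of 5 genes of the TNF receptor route, chosen after their values were seen, follow, and they do not describe the route as a whole. Other genes of such routes that were tallied but are not named here were under 1.2-fold apart. TRAF1, an adaptor of TNF receptors, was at 0.474 FPKM with the empty vector and 1.54 FPKM with INAVA, a ratio of 3.25. Its log2 difference of (FPKM + 0.5) was 1.07, beside a median of -0.079 for its 23 neighbours, of which 9 were higher. Its level with the empty vector was under 0.5 FPKM and the depth is unknown, so the error of this ratio is unstated. CD40, a receptor of the TNF receptor family, was at 23.7 and 34.8 FPKM, and 32 of its 35 neighbours on chromosome 20 were also higher, with a median log2 difference of 0.34, whose part in its level was not tested. TNFRSF1A, the main TNF receptor, was at 61.7 and 57.8 FPKM, RIPK1 at 13.8 and 13.4 FPKM, and FADD at 36.6 and 38.7 FPKM.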
